A study of Mus musculus with 8 samples.

Results

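The 9 genes described here encode potassium channel subunits that repolarize ventricular muscle, or set its resting potential, in the mouse heart. They were taken as the entries of the deposited count table whose Ensembl mouse identifiers carry the symbols Kcnd2, Kcnd3, Kcnip2, Kcna5, Kcnh2, Kcnq1, Kcnj2, Kcnj11 and Kcnk3, so 9 of the 33105 genes listed, and all 9 passed the filter on low counts. Messenger RNA was sequenced from whole-tissue powder of hearts of C57BL/6J mice, in 4 libraries labelled MR, for mitral regurgitation produced by minimally invasive surgery, and 4 libraries labelled Sham. The study's stated aim was to find pathways and characteristic genes of the cardiac hypertrophy that volume overload brings about. The part of the heart taken, the time after surgery, and the animals' age and sex were not given in the sources used here. Nor do the labels tie each library to its own animal, so p-values reflect variation among libraries, some of which may be technical.

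Repolarization ends each heartbeat's action potential by letting potassium leave the cell. In the adult mouse ventricle this is done mainly by fast voltage-gated channels. Kcnd2 and Kcnd3 encode the pore-forming subunits of the fast transient outward current, Kcnip2 encodes the calcium-binding protein that assembles with them, and Kcna5 encodes the pore of a rapidly activating delayed rectifier. Kcnh2 and Kcnq1 encode the pores of the rapid and slow delayed rectifiers, which dominate late repolarization in humans and carry less current in adult mice. Kcnj2 encodes the main inward rectifier, which holds the resting potential. Kcnj11 encodes the pore of the ATP-sensitive channel, which opens when cell energy falls, and Kcnk3 encodes a tandem-pore background channel sensitive to acid. Lower transcript levels of several of these genes are a known feature of hypertrophied and failing hearts in animal models.

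None of the 9 genes passed the threshold between MR and Sham, a false discovery rate of 0.05 in the edgeR quasi-likelihood test adjusted over all 16603 genes tested, where 0.458% of genes passed. Kcnh2 came nearest, at 57.8 ± 0.708 CPM in MR and 74.8 ± 10.6 CPM in Sham (SD, n = 4 each; log2 fold change −0.37, SE 0.09, adjusted p = 0.0755). CPM are counts divided by the library's total in units of 1e+06, after TMM scaling, a correction for differences in RNA composition. Kcnj11 was at 115 ± 3.42 CPM in MR and 133 ± 9.81 CPM in Sham (SD, n = 4 each; log2 fold change −0.21, SE 0.07, adjusted p = 0.163). The genes of the transient outward current were close to equal in both groups, with log2 fold changes of −0.06 for Kcnd2, 0.03 for Kcnd3 and 0.00 for Kcnip2; the sign of Kcnip2 turned under another scaling (0.04 with library totals). Of the 9 log2 fold changes 8 were below 0, with a median of −0.16 and a range of −0.37 to 0.03, beside 49.6% below 0 and a median of 0.00 over all genes tested. The 8 include Kcnip2, and this lean depends in part on the scaling. With library totals all 9 values were higher, among them −0.33 for Kcnh2, −0.11 for Kcnk3 and 0.08 for Kcnd3. At an unadjusted p under 0.05, 3 of the 9 were lower in MR (Kcnh2, Kcnj11 and Kcnq1), against 7.29% of all genes tested, and 0 were higher, against 7.78%. In bulk tissue, fewer cells of a type and less RNA per cell cannot be told apart.

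Sequences upstream of the RefSeq start sites (build GRCm38.p6) were at hand for 6 of the 9 genes, namely Kcna5, Kcnd2, Kcnd3, Kcnh2, Kcnip2 and Kcnj2. Windows of a pair of genes are printed, those of the gene with the lowest p-value and of the gene whose fold change was nearest to none. Each shows the 250 bases before the start site on the minus strand, 5′ to 3′, with CACCC boxes (CACCC or GGGTG) and GC boxes (GGGCGG or CCGCCC) in capitals. CACCC and GC boxes are bound by Krüppel-like and Sp factors.
Kcnh2, chr5:24329592-24329841: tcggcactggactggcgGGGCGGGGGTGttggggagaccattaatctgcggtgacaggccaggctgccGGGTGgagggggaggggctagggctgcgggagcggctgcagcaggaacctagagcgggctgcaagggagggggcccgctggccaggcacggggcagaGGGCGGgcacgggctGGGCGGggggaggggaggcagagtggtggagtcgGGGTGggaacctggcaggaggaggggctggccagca
Kcnip2, chr19:45816064-45816313: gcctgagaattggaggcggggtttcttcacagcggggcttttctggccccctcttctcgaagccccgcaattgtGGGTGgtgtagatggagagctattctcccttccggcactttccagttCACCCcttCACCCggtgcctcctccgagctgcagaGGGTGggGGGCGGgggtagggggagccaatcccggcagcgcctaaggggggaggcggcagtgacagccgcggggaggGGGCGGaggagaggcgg
The Kcnh2 window lies 22013 bases inside the gene as GENCODE annotates it, at an internal start site, and gene counts do not separate transcripts from different starts. The Kcnh2 window holds 3 CACCC boxes and 3 GC boxes and the Kcnip2 window 4 and 2, with none overlapping another; both strands were searched. A CACCC box was present in 52% of all 32851 windows of this length and in all 6 of the members' windows. A GC box was present in 32.7% of all windows and in 4 of the 6, the exceptions being Kcna5 and Kcnd3. GC content was 73.6% in the Kcnh2 window, 66.8% in the Kcnip2 window and 53.2% in the Kcna5 window, against a median of 52.4% over all windows. A match to such short letters is a description of the window and not evidence of binding.

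Total counts ran from 42291511 to 58658094 per library, and each of the 9 genes held 761 to 11008 counts in every library. On the first principal component of log2 CPM, which held 30.5% of the variance, Sham replicate 3 was closest to MR (−22.8 to −12.6 in MR, and −7.2 in Sham replicate 3 against 15.7 to 32.4 in the other Sham libraries). Sham replicate 1 had fewer reads in long transcripts, with a slope of log2 CPM on log2 exon length of −0.068, against −0.014 to 0.027 in the other 7 libraries. Its limma quality weight was 0.4, against 0.76 to 1.77 elsewhere. Markers of ventricular muscle such as Myl2 were abundant, at 5132 to 6138 CPM in MR and 6372 to 8009 CPM in Sham. The atrial markers Myl7 and Sln stayed at or below 4.43 CPM in MR and 4.9 CPM in Sham, and Bmp10 was at 0 in 6 of the 8 libraries. Myl4, Dkk3 and Nr2f2 averaged 5.8, 7.94 and 12.6 CPM in MR, against 3.37, 5.98 and 12.9 CPM in Sham. Of the 6 atrial markers tested, 5 had log2 fold changes above 0, with a median of 0.68, and 0 passed. The 7 atrial markers summed to 113 to 234 CPM in MR and 61.7 to 91.9 CPM in Sham, most of it from Nppa, which is also a stress gene.

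**Figure D1:**
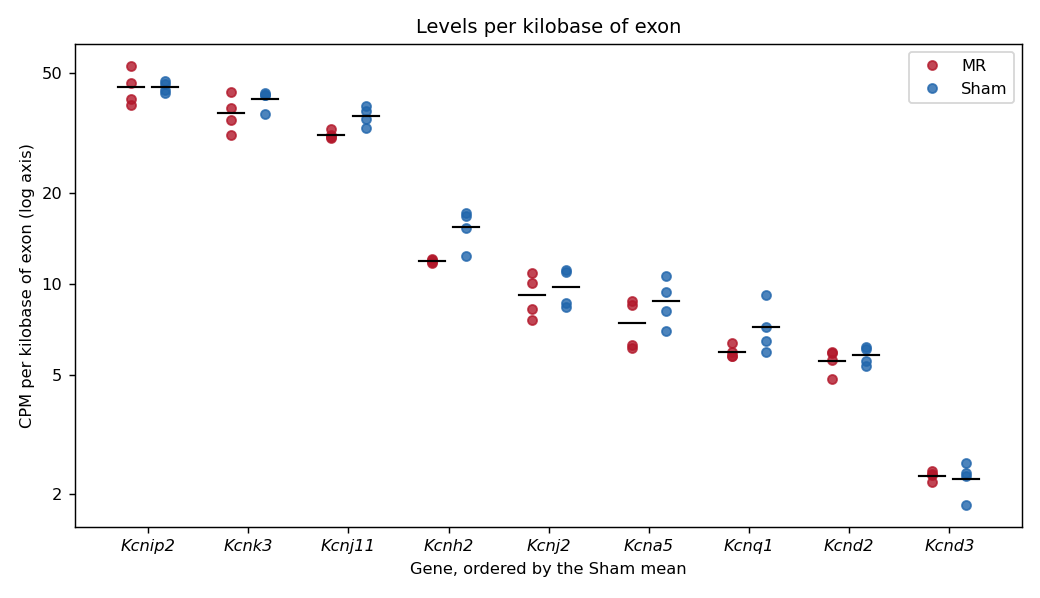
CPM per kilobase of exon on a log axis for the 9 genes, with MR libraries in red to the left of Sham libraries in blue and black lines at the group means (n = 4 each). Kcnip2, Kcnk3 and Kcnj11 lie above 30 in every library, and Kcnd3 lies lowest, between 1.84 and 2.54.

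Levels were compared between genes as CPM per kilobase of exon, a scale that sets genes of different exon length side by side. Exon length was all bases in any annotated exon of a gene, so transcripts that use only some of these exons are understated. Kcnip2 led with 45.0 ± 6.2 in MR and 45.1 ± 1.81 in Sham (SD, n = 4 each). Kcnk3 followed at 36.9 ± 5.14 in MR and 41.2 ± 3.01 in Sham, then Kcnj11 at 31.2 ± 0.931 in MR and 36.2 ± 2.67 in Sham. Kcnh2 stood at 11.9 ± 0.146 in MR and 15.4 ± 2.2 in Sham, apart from its neighbours in the order in both groups. Kcnj2 (9.2 ± 1.52 in MR and 9.77 ± 1.47 in Sham), Kcna5 (7.41 ± 1.41 and 8.78 ± 1.57), Kcnq1 (5.95 ± 0.294 and 7.19 ± 1.43) and Kcnd2 (5.56 ± 0.51 and 5.79 ± 0.408) formed a run in which each gene's range overlapped that of the next in both groups. Kcnd3 was lowest at 2.31 ± 0.0881 in MR and 2.26 ± 0.295 in Sham, with no overlap with Kcnd2. The order of the 9 genes was the same in both groups. Kcnip2 and Kcnk3 overlapped in MR and not in Sham, and Kcnk3 and Kcnj11 overlapped in both.

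**Figure D2:**
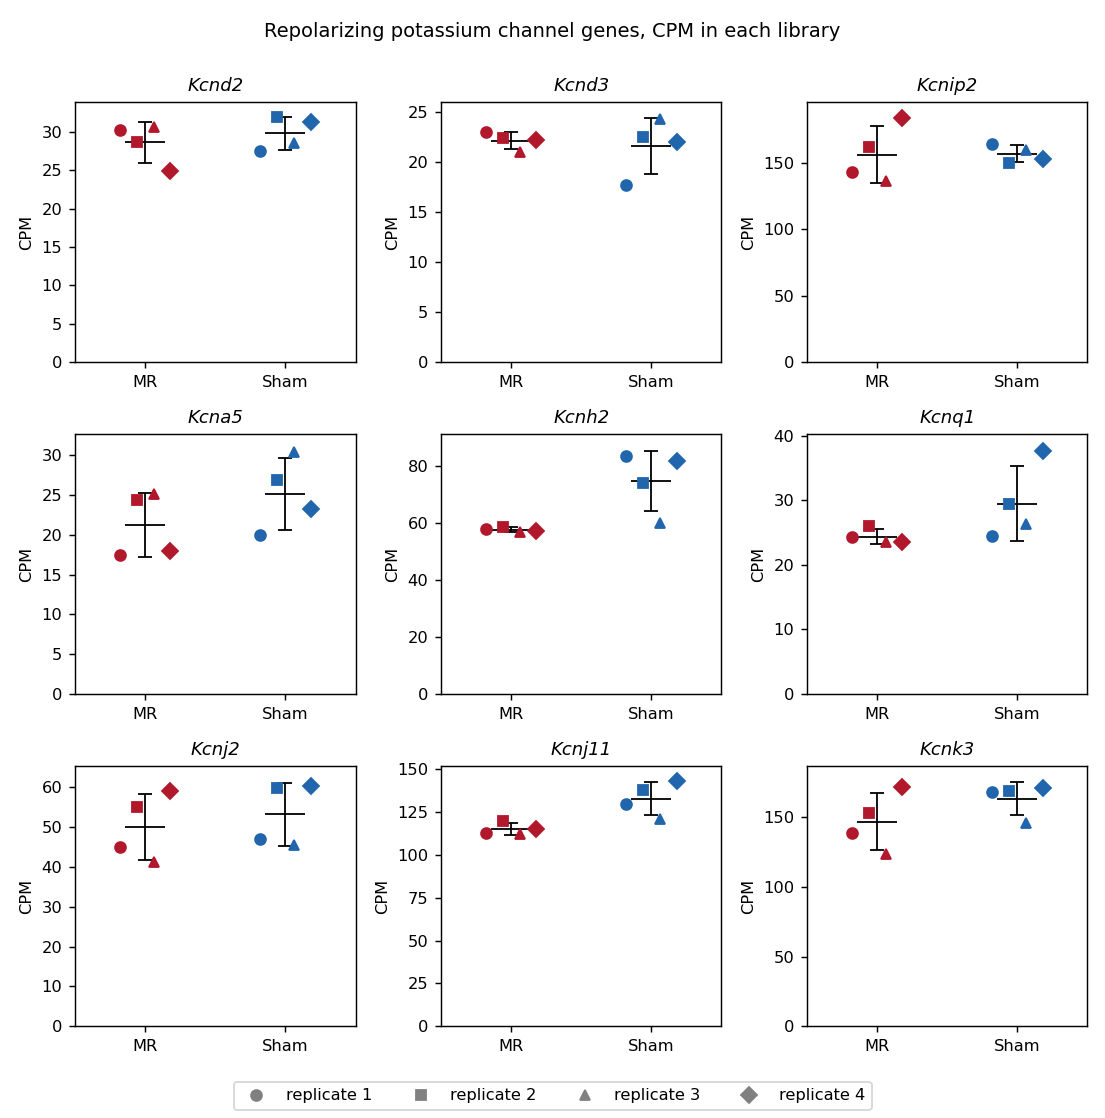
CPM of each gene in each library, with MR in red on the left and Sham in blue on the right of every panel, one symbol per replicate number, and black bars for the mean and SD (n = 4 each). The 4 MR values lie below all 4 Sham values for Kcnh2 and Kcnj11, and the groups overlap for the other 7 genes.

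Kcnd2 (ENSMUSG00000060882, chromosome 6, 21215503 to 21729805, GRCm38) had 30.3, 28.7, 30.7 and 24.9 CPM in MR replicates 1 to 4, against 27.5, 31.9, 28.6 and 31.3 CPM in Sham replicates 1 to 4. The lowest of the 8 values was MR replicate 4, and the other 3 MR values lay within the Sham range. The log2 fold change was −0.06 (adjusted p = 0.783) with a 95% confidence interval of −0.24 to 0.12, or −15% to 8.43%. Without MR replicate 4 the log2 fold change was 0.00.

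Kcnd3 (ENSMUSG00000040896, chromosome 3, 105452330 to 105674002) had 23, 22.4, 21 and 22.2 CPM in MR, against 17.7, 22.5, 24.3 and 22 CPM in Sham. Sham held both the lowest and the highest value, the lowest in replicate 1, the library with fewer reads in long transcripts. Kcnd3 has the longest exon sequence of the 9 genes, 9587 bases. Its log2 fold change was 0.03 (95% confidence interval −0.16 to 0.23, adjusted p = 0.904), and it was −0.06 without Sham replicate 1. An antisense gene, Kcnd3os, shares 165 bases of exon and was at 0.724 CPM on average in MR and 0.552 CPM in Sham.

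Kcnip2 (ENSMUSG00000025221, chromosome 19, 45791839 to 45816061) had 143, 162, 136 and 184 CPM in MR, against 164, 150, 160 and 153 CPM in Sham. The MR libraries spread on both sides of the Sham libraries, with a coefficient of variation of 13.8% in MR and 4.02% in Sham. The log2 fold change was 0.00 (adjusted p = 0.996), with a 95% confidence interval of −0.19 to 0.19, or −12.6% to 14.2%. Its sign turned under 7 of the 16 alternative settings, within −0.09 to 0.06.

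Kcna5 (ENSMUSG00000045534, chromosome 6, 126532551 to 126535412) had 17.5, 24.3, 25.1 and 17.9 CPM in MR, against 20, 26.9, 30.4 and 23.2 CPM in Sham. MR replicates 1 and 4 lay below every Sham value, and the other 2 lay within the Sham range. This was the gene with the widest spread in MR, a coefficient of variation of 19% beside 17.9% in Sham. Its log2 fold change was −0.25 (SE 0.15, 95% confidence interval −0.57 to 0.08, adjusted p = 0.469), and −0.35 to −0.14 with a library left out.

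Kcnh2 (ENSMUSG00000038319, chromosome 5, 24319589 to 24351604) had 58.1, 58.6, 57 and 57.4 CPM in MR, against 83.5, 74, 60.1 and 81.7 CPM in Sham. All 4 MR values lay below all 4 Sham values, and Sham replicate 3 lay nearest to them. Groups did not overlap, with MR lower, in 2 of the 9 genes and in 3.91% of all genes tested, and with MR higher in 0 of the 9 and in 4.19% of all. The 95% confidence interval of the log2 fold change was −0.57 to −0.18, or −32.5% to −11.8%, and the gene ranked 212 of 16603 by p-value. Leaving out single libraries gave −0.47 to −0.32. Of these fits Kcnh2 passed only without Sham replicate 3 (adjusted p = 0.00217, where 5.28% of genes passed). The highest adjusted p was 0.244, without Sham replicate 4. With all 8 libraries Kcnh2 passed in edgeR without a filter on low counts (adjusted p = 0.000393, 3.06% of genes). It also passed in edgeR with a trend in exon length removed (adjusted p = 0.04999, 1.47% of genes). It passed in DESeq2 (adjusted p = 0.0102, 4.14% of genes) and in limma-voom with quality weights (adjusted p = 0.0367, 2.75% of genes). The MR libraries varied by a coefficient of variation of 1.23%, below the 1.89% that independent counting alone would give at this depth, beside 14.2% in Sham, where counting would give 1.74%. If both ends of each fragment were counted, the counting values would be 2.67% in MR and 2.47% in Sham.

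Kcnq1 (ENSMUSG00000009545, chromosome 7, 143106362 to 143427042) had 24.3, 26.1, 23.6 and 23.5 CPM in MR, against 24.4, 29.4, 26.4 and 37.6 CPM in Sham. MR replicates 1, 3 and 4 lay below all Sham values, and MR replicate 2 lay between Sham replicates 1 and 3. The log2 fold change was −0.27 (SE 0.11, 95% confidence interval −0.52 to −0.03, adjusted p = 0.273), and it was −0.13 without Sham replicate 4, the highest library. The antisense transcript Kcnq1ot1, which in mice silences neighbouring genes on the paternal chromosome, shares 121 bases of exon with Kcnq1. It had 6.48, 6.83, 7.25 and 6.87 CPM in MR, against 5.04, 5.26, 5.74 and 5.1 CPM in Sham (log2 fold change 0.37, adjusted p = 0.0948). Since the strand setting of the counting is not given in the sources used here, reads over the shared bases cannot be assigned to one of the 2 genes.

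Kcnj2 (ENSMUSG00000041695, chromosome 11, 111066164 to 111076821) had 45, 55, 41.3 and 59 CPM in MR, against 47.1, 59.8, 45.5 and 60.4 CPM in Sham. In both groups replicates 2 and 4 were high and replicates 1 and 3 low, and the ranges overlapped nearly in full. Replicate numbers only name libraries, so this likeness joins no pairs. The log2 fold change was −0.09 (95% confidence interval −0.36 to 0.19, adjusted p = 0.795), and −0.18 to 0.00 with a library left out.

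Kcnj11 (ENSMUSG00000096146, chromosome 7, 46093953 to 46100764) had 113, 120, 112 and 115 CPM in MR, against 130, 138, 121 and 143 CPM in Sham. All MR values lay below all Sham values, with Sham replicate 3 again the lowest Sham library. The 95% confidence interval of the log2 fold change of −0.21 was −0.36 to −0.06, or −22.2% to −4.22%. Leaving out single libraries gave −0.26 to −0.17, with a highest adjusted p of 0.429. Of these fits Kcnj11 passed only without Sham replicate 3 (adjusted p = 0.0488, where 5.28% of genes passed). In DESeq2 it had an adjusted p of 0.0554.

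Kcnk3 (ENSMUSG00000049265, chromosome 5, 30588170 to 30625271) had 139, 153, 124 and 172 CPM in MR, against 168, 169, 146 and 171 CPM in Sham. MR held both the highest and the lowest value. The log2 fold change was −0.16 (SE 0.10, 95% confidence interval −0.36 to 0.05, adjusted p = 0.469), and −0.24 to −0.08 with a library left out. The transcript Gm9899 on the opposite strand shares 229 bases of exon with Kcnk3 and averaged 24 CPM in MR and 22.9 CPM in Sham.

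**Figure D3:**
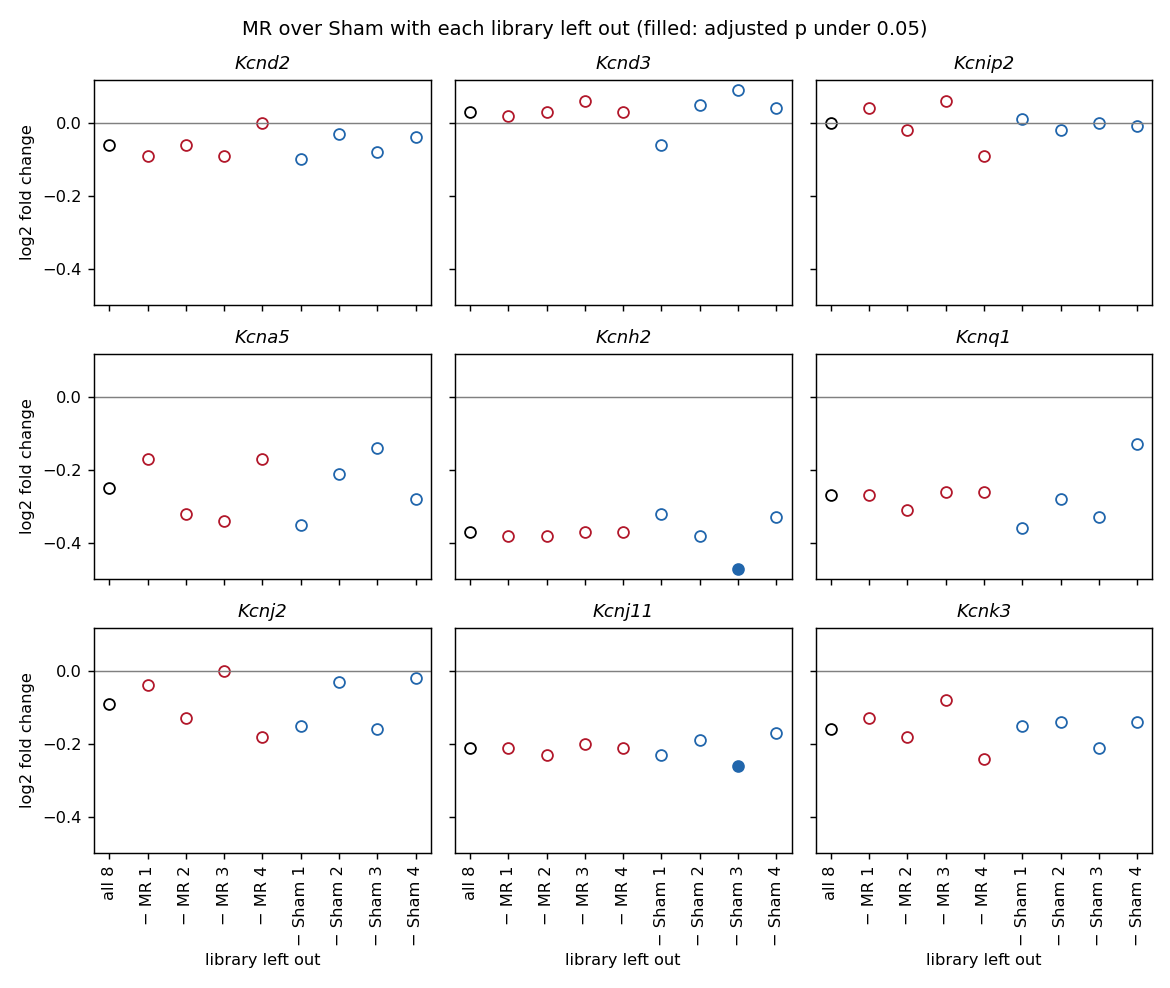
Log2 fold change of MR over Sham in edgeR for each gene with all 8 libraries (black) and with each MR (red) or Sham (blue) library left out, filled where the adjusted p was under 0.05. Filled points occur for Kcnh2 and Kcnj11 without Sham replicate 3, and the points of Kcnd2, Kcnd3, Kcnip2 and Kcnj2 reach or cross 0.

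With all 8 libraries, 0 of the 9 members passed under RLE size factors (0.47% of all genes tested), library totals (0.422%), a stricter filter requiring 1 CPM in 4 libraries (0.389%) and edgeR without robust moderation (0.56%). Without a filter on low counts 2 passed, Kcnh2 and Kcnq1 (adjusted p = 0.0479), where 3.06% of genes did, and with a trend in exon length removed 1 passed, Kcnh2, where 1.47% did. Without MR replicates 1, 2, 3 and 4 in turn, 0 members passed, where 0.095%, 0.0595%, 0.0833% and 0.244% of genes did. Without Sham replicates 1, 2 and 4 in turn, 0 members passed, where 0.551%, 0.0178% and 0.0356% of genes did. Without Sham replicate 3, 2 members passed, where 5.28% of genes did. Over all genes tested, 15.1% had an unadjusted p under 0.05 in either direction, and groups did not overlap in 8.09%.

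Markers of ventricular muscle had values that differed mostly in the same direction as those of these genes. All 8 were tested and 0 passed. At an unadjusted p under 0.05, 5 were lower in MR, where 7.29% of all genes tested were. Of the 8 log2 fold changes 7 were below 0, with a median of −0.23, beside 49.6% below 0 over all genes tested. They ran from −0.36 for Tnnt2 to 0.18 for Actc1, with Myl3 and Ryr2 both at −0.06. The summed level was 44592 to 50965 CPM in MR and 49005 to 57072 CPM in Sham. Tnnt2, cardiac troponin T, had 4951, 4302, 3914 and 4076 CPM in MR, against 6468, 5251, 4644 and 5765 CPM in Sham. The 6 endothelial markers summed to 752 to 801 CPM in MR and 622 to 774 CPM in Sham. The 7 markers of smooth muscle and pericytes summed to 959 to 1080 CPM in MR and 889 to 975 CPM in Sham, and the 6 fibroblast markers to 835 to 919 CPM in MR and 768 to 801 CPM in Sham. Of the fibroblast markers 2 rose, the collagen genes Col1a1 (log2 fold change 0.81, adjusted p = 0.0483) and Col1a2 (0.63, adjusted p = 0.0159), and Dcn was at −0.01; with a library left out the highest adjusted p was 0.145 for Col1a1 and 0.0687 for Col1a2. The 6 markers of the conduction system summed to 29.3 to 35.2 CPM in MR and 31.6 to 37.9 CPM in Sham. The 8 neuronal and Schwann cell markers summed to 8.56 to 11.5 CPM in MR and 10.1 to 10.7 CPM in Sham, with Th at 0 in every library. The 7 neutrophil markers summed to 3.48 to 6.43 CPM in MR and 9.37 to 62.3 CPM in Sham, where replicate 4 was highest and replicate 3 lowest. Of these 7, 0 passed and 6 were lower in MR at an unadjusted p under 0.05, where 7.29% of all genes tested were. The part of these shifts in the channel genes' values was not tested.

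Subunits that assemble or share a current were compared as ratios of CPM within a library, which need no scaling between libraries. Such ratios do not remove a trend with exon length, as in Sham replicate 1, where the paired genes differ in length. Exon bases were 3476 for Kcnip2, 9587 for Kcnd3 and 5152 for Kcnd2. In the other pairs compared they were 5444 for Kcnj2 and 2750 for Kcnj12, and 3677 for Kcnj11 and 8373 for Abcc9. The part of that trend in the ratios was not tested. Kcnip2 over Kcnd2 was 4.74, 5.63, 4.44 and 7.4 in MR, against 5.96, 4.69, 5.57 and 4.91 in Sham. Kcnd3 over Kcnd2 was 0.761, 0.779, 0.684 and 0.891 in MR, against 0.643, 0.705, 0.85 and 0.704 in Sham. Both ratios overlapped between the groups, with differences of 0.05 and 0.10 on the log2 scale (exact two-sided permutation test, adjusted p 0.886 and 0.571 over 4 ratios). Per kilobase of exon, Kcnip2 exceeded Kcnd2 by 6.58 to 11 times in MR and 6.95 to 8.83 times in Sham.

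**Figure D4:**
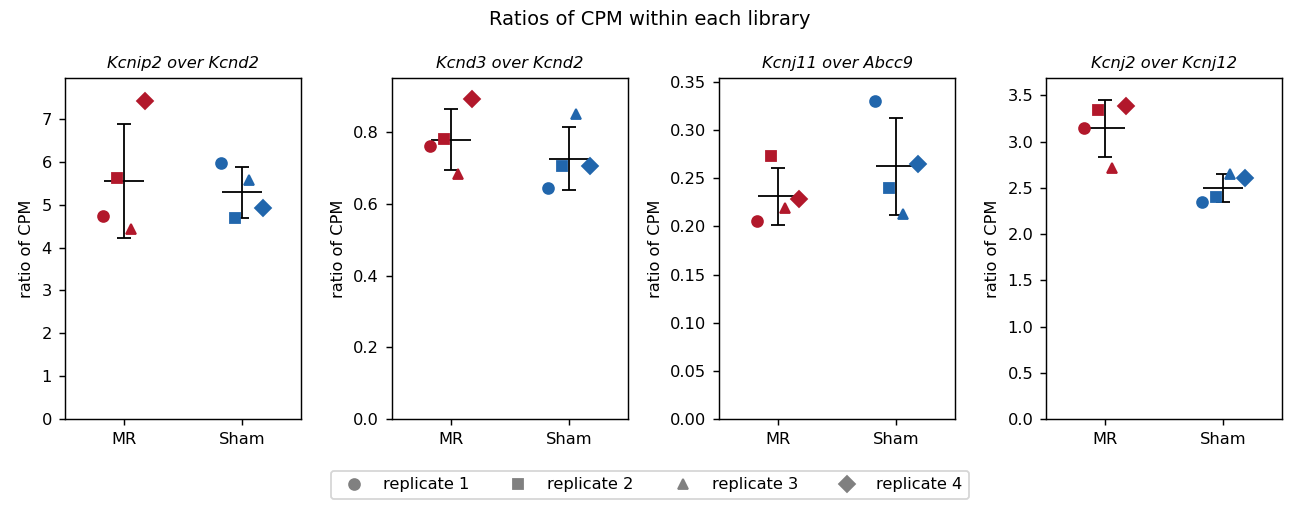
Ratios of CPM of 2 genes within each library, MR in red on the left and Sham in blue on the right, one symbol per replicate number, with mean and SD in black (n = 4 each). The ratio of Kcnj2 over Kcnj12 lies at 2.71 to 3.38 in MR and 2.35 to 2.65 in Sham without overlap, and the other 3 ratios overlap.

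The ratio of Kcnj2 over Kcnj12, which encodes a second inward rectifier subunit able to assemble with that of Kcnj2, was 3.15, 3.34, 2.71 and 3.38 in MR, against 2.35, 2.4, 2.65 and 2.61 in Sham. All 4 MR values were higher, by 0.33 on the log2 scale, with p = 0.0286, the smallest that 70 arrangements in the exact two-sided permutation test allow, and adjusted p = 0.114 over the 4 ratios. Kcnj12 itself had 14.3, 16.4, 15.3 and 17.5 CPM in MR, against 20.1, 24.9, 17.1 and 23.2 CPM in Sham. MR replicate 4 overlapped Sham replicate 3, and the log2 fold change was −0.42 (SE 0.11, adjusted p = 0.0881). With a library left out, Kcnj12 passed only without Sham replicate 3 (adjusted p = 0.00795, where 5.28% of genes passed), and its highest adjusted p was 0.271. In DESeq2 its adjusted p was 0.0192, where 4.14% of genes passed. Kcnj11 over Abcc9, its main partner in ventricular muscle, was 0.205, 0.273, 0.219 and 0.228 in MR, against 0.33, 0.24, 0.213 and 0.265 in Sham, overlapping at a log2 difference of −0.17 (exact two-sided permutation test, adjusted p = 0.571).

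The genes of the ATP-sensitive channel lie in 2 neighbouring pairs. Kcnj11 and Abcc8, a sulfonylurea receptor more typical of atria and pancreatic islets in mice, are separated by 3758 bases on chromosome 7. Abcc8 had 34, 35.5, 32.9 and 34.5 CPM in MR, against 31.9, 41.7, 39.1 and 46.4 CPM in Sham (log2 fold change −0.22, adjusted p = 0.301), so 3 Sham libraries lay above all MR libraries and Sham replicate 1 lay below them. Kcnj8 and Abcc9, which form the channel of vascular muscle, are separated by 16247 bases on chromosome 6. Kcnj8 was at 36.1 ± 2.97 CPM in MR and 35.1 ± 2.5 CPM in Sham (log2 fold change 0.04, 95% confidence interval −0.13 to 0.21), and Abcc9 was at 500 ± 46.9 CPM in MR and 519 ± 85.4 CPM in Sham (log2 fold change −0.05, 95% confidence interval −0.30 to 0.19; SD, n = 4 each). Leaving out a library moved Kcnj8 between 0.00 and 0.09 and Abcc9 between −0.17 and 0.01.

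**Figure D5:**
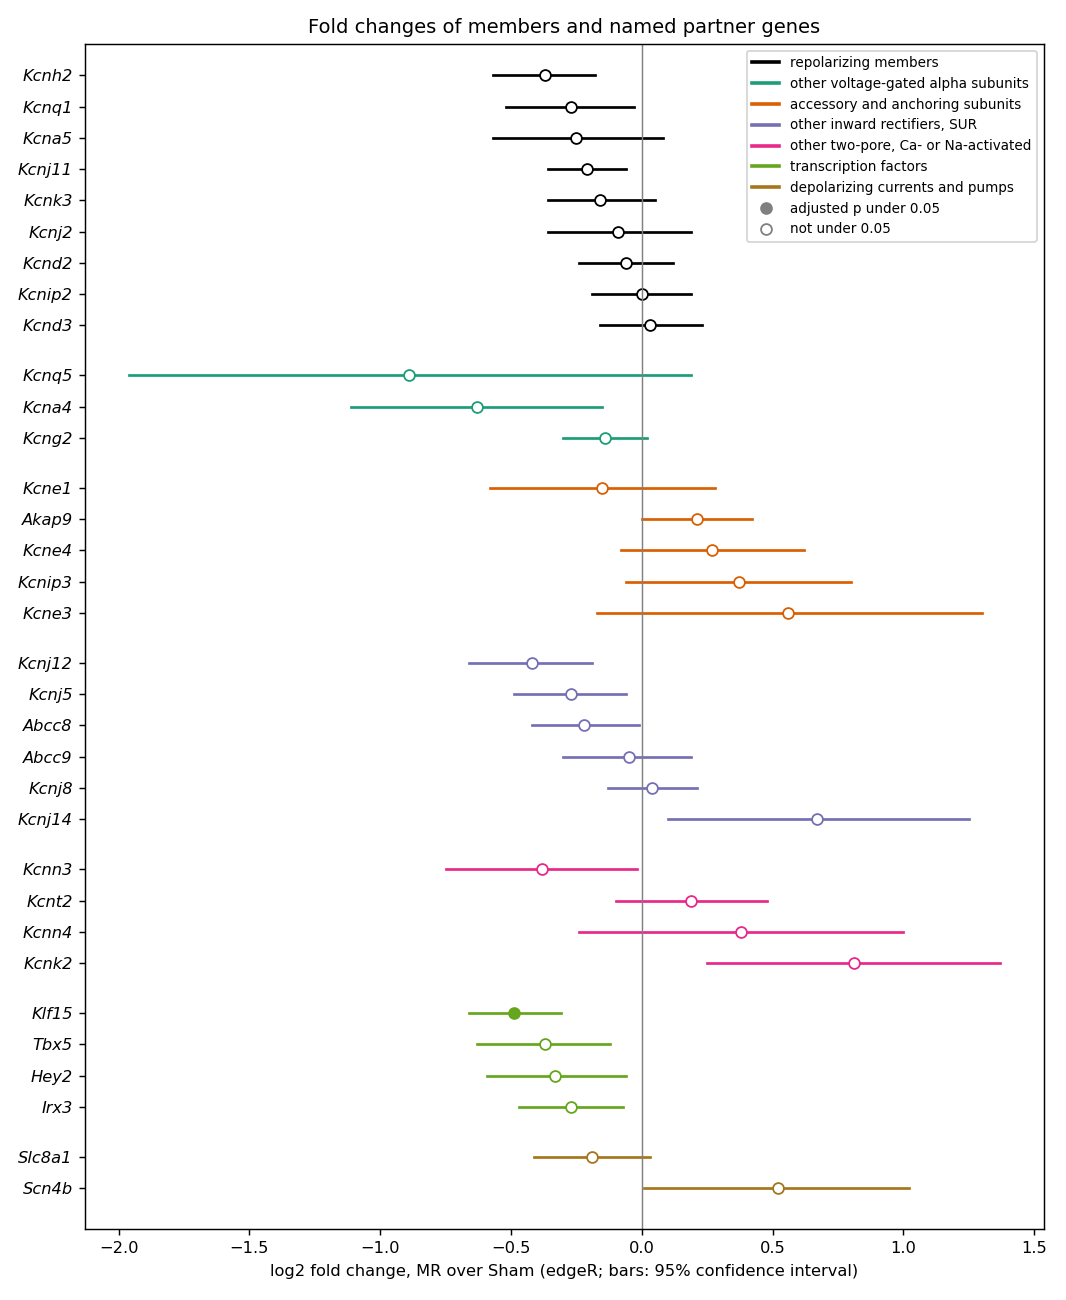
Log2 fold change of MR over Sham (points) with 95% confidence intervals (bars) in edgeR for the 9 members and the named genes of 6 related lists, coloured by list. Filled points have an adjusted p under 0.05, which holds for Klf15 alone among those drawn.

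Of the other voltage-gated alpha subunits, 14 of 15 were tested, 0 rose, 0 fell and 14 did not pass, with a median log2 fold change of −0.05. At an unadjusted p under 0.05, 0 were higher and 1 lower, against 7.78% and 7.29% of all genes tested. DESeq2 called 0, against 4.14% of all genes tested. Kcna4, the alpha subunit of the slow transient outward current, had 1.38, 1.13, 1.32 and 1.34 CPM in MR, against 1.39, 1.66, 1.98 and 2.96 CPM in Sham (log2 fold change −0.63, SE 0.22, adjusted p = 0.2). Kcnq5 was at −0.89 with 0.26 ± 0.125 CPM in MR and 0.495 ± 0.273 CPM in Sham (SD, n = 4 each; adjusted p = 0.433), and Kcng2, an electrically silent modifier subunit, at −0.14 (adjusted p = 0.396).

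Of the accessory and anchoring subunits, 11 of 14 were tested, 0 rose, 0 fell and 11 did not pass, with a median of 0.21. An unadjusted p under 0.05 was seen in 0 of these, against 15.1% of all genes tested. DESeq2 called 0, against 4.14% of all. Kcne1, the partner of Kcnq1 in the slow delayed rectifier, had 6.68, 6.49, 7.65 and 4.19 CPM in MR, against 8.71, 5.54, 5.43 and 8.04 CPM in Sham (log2 fold change −0.15, adjusted p = 0.764). The log2 fold changes of Akap9, which anchors kinase and phosphatase to the Kcnq1 channel, Kcnip3, Kcne4 and Kcne3 were 0.21, 0.37, 0.27 and 0.56 (adjusted p 0.344, 0.415, 0.466 and 0.466). Kcne3 and Kcnip3 were low, averaging 0.41 and 1.81 CPM in MR, against 0.277 and 1.4 CPM in Sham. Of the other inward rectifiers and sulfonylurea receptors, 8 of 8 were tested and 0 passed, with a median of −0.12. At an unadjusted p under 0.05, 1 was higher and 3 lower, against 7.78% and 7.29% of all genes tested. DESeq2 called 1 (Kcnj12), against 4.14% of all genes. Kcnj5, a subunit of the acetylcholine-activated channel, was at −0.27 (adjusted p = 0.212, and 0.0256 without Sham replicate 3). Kcnj14, averaging only 1.01 CPM in MR and 0.627 CPM in Sham, was at 0.67 (adjusted p = 0.248).

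Of the other tandem-pore and calcium- or sodium-activated channels, 11 of 14 were tested and 0 passed, with a median of 0.03. At an unadjusted p under 0.05, 1 was higher and 1 lower, against 7.78% and 7.29% of all genes tested. DESeq2 called 1 (Kcnk2), against 4.14% of all genes. Kcnk2, a stretch-sensitive background channel, had 2.91, 3.74, 3.58 and 2.33 CPM in MR, against 1.93, 1.73, 2.59 and 0.907 CPM in Sham. Only MR replicate 4 lay below a Sham value, that of replicate 3, and the log2 fold change was 0.81 (SE 0.26, adjusted p = 0.157, and 0.0488 in DESeq2). With a library left out, Kcnk2 passed only without Sham replicate 3 (adjusted p = 0.0292, where 5.28% of genes passed), and its highest adjusted p was 0.341. An antisense gene shares 604 bases of exon with Kcnk2, so the value of Kcnk2 is uncertain. Kcnn3, Kcnt2 and Kcnn4 were at −0.38, 0.19 and 0.38 (adjusted p 0.305, 0.54 and 0.574), with Kcnn4 averaging only 0.633 CPM in MR and 0.481 CPM in Sham.

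Of 8 transcription factors tied to cardiac potassium channel genes, 8 were tested, 0 rose, 1 fell and 7 did not pass, with a median of −0.18. At an unadjusted p under 0.05, 0 were higher and 4 lower, where 7.29% of all genes tested were lower. DESeq2 called 1 (Klf15), against 4.14% of all genes tested. Klf15, a Krüppel-like factor that in mice drives rhythmic expression of Kcnip2, fell to 35.4, 37.6, 37 and 38.5 CPM in MR, against 44.6, 59.5, 51.1 and 53.2 CPM in Sham (log2 fold change −0.49, SE 0.08, adjusted p = 0.0261). Its call was lost without MR replicates 1, 2 and 3 and without Sham replicates 2 and 4 (adjusted p 0.0803, 0.0803, 0.0734, 0.0815 and 0.0921). Tbx5, a T-box factor of the heart, was at −0.37 (adjusted p = 0.153; 0.0201 without Sham replicate 3), and Hey2, a Notch target of the compact ventricular wall, at −0.33 (adjusted p = 0.226). Irx3, an Iroquois factor of the ventricular conduction system, was at −0.27 (adjusted p = 0.181), with all MR values (14 to 16.2 CPM) below all Sham values (16.6 to 21.7 CPM).

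Of 10 genes of depolarizing currents and ion pumps, 10 were tested and 0 passed, with a median of 0.00. At an unadjusted p under 0.05, 2 were higher and 0 lower, against 7.78% and 7.29% of all genes tested. DESeq2 called 1, against 4.14% of all genes. Scn4b, a beta subunit of the sodium channel, was at 0.52 (adjusted p = 0.318), and Slc8a1, the sodium-calcium exchanger, at −0.19 (adjusted p = 0.406). With the strand setting unknown, values are also uncertain for genes that share exon bases with a gene on the opposite strand. These include Kcng2 (9.1% of its exon bases), Irx3 (4.49%), Kcnq5 (3.08%) and Abcc9 (1.89%). They also include markers with larger shares, among them Tagln of smooth muscle (62.4%), Nppa (61.5%) and Pln of ventricular muscle (59.6%).

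Genes whose log2 CPM closely followed that of Kcnh2 over the 8 libraries, among 13326 genes averaging at least 1 CPM, included Kiz and Lamb3, with Pearson correlations of 0.989 and 0.988. The points include both groups and share the same libraries, so these values describe likeness only. Kiz was at 49.3 ± 0.642 CPM in MR and 57.3 ± 4.15 CPM in Sham, and Lamb3 was at 13.1 ± 0.221 CPM in MR and 20.6 ± 3.73 CPM in Sham (SD, n = 4 each). Lamb3 was past the threshold (log2 fold change −0.65, adjusted p = 0.0293), and Kiz was not (log2 fold change −0.22, adjusted p = 0.141).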

How the data were processed

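Raw counts per Ensembl gene, whole numbers without normalization, were deposited by the authors for 4 MR and 4 Sham heart libraries. Per the labels, TRIzol-extracted RNA went into an ABclonal mRNA library kit. The submitters' processing notes list HISAT2 2.0.5 and mm10 with no roles. The counter, annotation and strand setting were not given in the sources used here. Columns were matched to libraries by title and groups taken from the treatment label. Symbols and coordinates came from GENCODE (GRCm38), which matched 32350 of 33105 identifiers; 16603 genes passed filterByExpr of edgeR 4.0.16 (minimum count 10, total 15) in R 4.3.3 and were tested, 16502 were not. Groups were compared with edgeR's quasi-likelihood F test (TMM, robust) with Benjamini-Hochberg adjustment over all genes tested; adjusted p-values are from it unless another tool (DESeq2 1.42.0, limma 3.58.1) or the exact permutation test is named. SE is the absolute log2 fold change over the root of F. Genes with 2 reads outnumbered those with 1 by 2.27 to 2.82 times per library, as counting both ends of a fragment would give; this was not tested, and counting errors may be larger than stated. The 12 pairs of replicates differed by 13.2 to 47 times counting noise (chi-square per degree of freedom), and none was a copy.

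The members, lists and markers were chosen with earlier results of these data known. Named are the members, the 4 genes with the lowest p of each of 6 lists, fixed partners (Abcc9, Abcc8, Kcnj12, Kcnj8, Kcne1, Kcna4 and Klf15 among them), the 3 genes most like the member with the lowest p, and markers where they bear on a member; some genes that this rule names are not reported here. The alternatives were RLE factors, library totals, 2 other filters, DESeq2, limma-voom (quality weights), edgeR without robust moderation, removal of a trend with exon length, and each library left out.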

Additional observations from a re-analysis of the deposited data

Results flagged for a closer look

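Within groups of 4, a library was singled out where its gap to the nearest other value exceeded Dixon's 95% critical value for its share of the group's range, which chance does in about 1 in 20 groups; 6 of 74 groups examined met this. Among the members, Kcnk3 in Sham replicate 3 was at 146 CPM, with the other Sham libraries at 168 to 171 CPM. In MR replicate 4, Kcnip3 was at 1.47 CPM against 1.88 to 1.95 CPM in the other MR libraries, and Kcnj14 at 0.603 CPM against 1.11 to 1.16 CPM. In MR replicate 3, Kcne3 was at 0.279 CPM against 0.443 to 0.465 CPM, and Irx3 at 14 CPM against 15.8 to 16.2 CPM. Hey2 in Sham replicate 4 was at 4.1 CPM, against 4.79 to 4.91 CPM in the other Sham libraries.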

How the results depend on the processing

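The 0 of 9 members past the threshold became 2 without a filter on low counts (Kcnh2 and Kcnq1, among 936 changed genes), 1 in DESeq2 (Kcnh2, among 688), 1 in limma-voom with quality weights (Kcnh2, among 457) and 1 with the length trend removed (Kcnh2, adjusted p = 0.04999, among 244), against 76 changed genes in the edgeR test as reported. With a library left out the members called ranged from 0 to 2, the 2 being Kcnh2 and Kcnj11 without Sham replicate 3, and the changed genes from 3 (without Sham replicate 2) to 887 (without Sham replicate 3). The cause was not tested. Kcnip2, at 0.00, was above 0 with library totals only (0.04), with at least 1 CPM in 4 libraries (0.00) and with the length trend removed (0.00). Leaving out single libraries gave log2 fold changes of −0.09 to 0.06 for Kcnip2, −0.10 to 0.00 for Kcnd2, −0.06 to 0.09 for Kcnd3, −0.17 to 0.01 for Abcc9, −0.26 to 0.00 for Kcne1 and 0.00 to 0.09 for Kcnj8. The difference, MR minus Sham, in the log2 ratio of Kcnip2 over Kcnd2 was −0.10 to 0.15 on leaving out single libraries, being −0.10 without MR replicate 4 and −0.01 without Sham replicate 2. Of 144 member values under alternatives, 128 kept direction and side of the threshold, 7 newly passed and 9 changed sign. No paired analysis was possible because the numbers in the titles differ between the groups and replicate numbers only name libraries. The confidence intervals given show the precision that 4 libraries per group allowed.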
